A study of Mus musculus with 7 samples.

Results

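The genes described here are 9 genes of MHC class I antigen presentation, taken by symbol from the deposited table of raw counts, which lists 24421 symbols. They are the heavy chain genes H2-K1, H2-D1 and H2-T23, the light chain gene B2m, the peptide transporter genes Tap1 and Tap2, the tapasin gene Tapbp, the peptide-trimming gene Erap1 and the regulator Nlrc5. Each symbol matched 1 row, and all 9 genes passed the low-count filter.

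Messenger RNA was compared between 3 libraries labelled pCAF (PDPN+ cancer-associated fibroblasts) and 4 labelled NMF, all from BALB/c mice. The pCAF libraries came from breast tumors grown after 4T1-luc cells, a mouse mammary carcinoma line, were placed in the lower left fat pad of females; the dose was 100000 cells, and tumors were taken at 1 cm. Cells of the digested tumors were sorted as Ter119- CD45- EpCAM- PDPN+, where PDPN is the surface protein podoplanin. The NMF libraries came from the untreated normal mammary fat pad and were sorted as Ter119- CD45- EpCAM-, with no PDPN step. The labels give an age of 8 weeks for pCAF mice and 12 weeks for NMF mice, although the design text calls the mice age-matched. The selection field of pCAF replicate 3 reads PDPN- while its title and source name put it in pCAF, and it was kept there. The enzyme mixtures differed too, collagenase A for tumors and collagenases II and IV for fat pads. The libraries are called biological replicates, but the labels do not tie them to animals; the p-values rest on the variation among the 7 libraries, part of which may be technical.

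In the class I pathway, proteasomes cut cytosolic proteins into peptides, the TAP1-TAP2 transporter carries the peptides into the endoplasmic reticulum, and tapasin holds empty class I molecules at the transporter while they load. A class I molecule is a heavy chain joined to beta-2-microglobulin, and it presents its peptide to CD8+ T cells at the cell surface. In fibroblasts most of these genes are known to be transcribed at a basal level and to be induced by interferon gamma.

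The promoters of these genes are known for a shared set of regulatory elements, so the 250 bases before the start of 4 genes are shown, from RefSeq on GRCm38.p6: B2m, the gene that was higher in pCAF; the classical heavy chains H2-K1 and H2-D1, which were not called; and Tapbp, which was lower. RefSeq windows matched 7 of the 9 members, Tap2 and Nlrc5 being the other two. Capitals mark matches to any of 4 motifs searched on both strands: the interferon-stimulated response element core (GAAA, any 2 bases, GAAA), the NF-kappaB consensus, the CCAAT box and the CRE motif TGACG. Another motif, the gamma-activated sequence TTCNNNGAA, had no match in them. The windows lie at chr2:122147437-122147686 (plus strand) for B2m, chr17:34000334-34000583 (minus strand; 1 of 2 RefSeq windows) for H2-K1, chr17:35262844-35263093 (plus strand) for H2-D1 and chr17:33919228-33919477 (plus strand) for Tapbp. In the GENCODE M21 annotation, H2-D1 and Tapbp start before these windows, which therefore lie within the spans given for those genes below.
B2m: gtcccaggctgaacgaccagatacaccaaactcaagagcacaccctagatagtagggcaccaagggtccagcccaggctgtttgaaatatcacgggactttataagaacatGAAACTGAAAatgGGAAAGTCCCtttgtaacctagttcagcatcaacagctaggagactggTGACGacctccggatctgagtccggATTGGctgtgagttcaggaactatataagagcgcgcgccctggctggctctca
H2-K1: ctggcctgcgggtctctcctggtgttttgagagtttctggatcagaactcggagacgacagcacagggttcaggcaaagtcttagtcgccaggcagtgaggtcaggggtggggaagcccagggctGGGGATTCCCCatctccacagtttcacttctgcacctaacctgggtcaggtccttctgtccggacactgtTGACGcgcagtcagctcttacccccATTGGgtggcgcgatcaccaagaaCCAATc
H2-D1: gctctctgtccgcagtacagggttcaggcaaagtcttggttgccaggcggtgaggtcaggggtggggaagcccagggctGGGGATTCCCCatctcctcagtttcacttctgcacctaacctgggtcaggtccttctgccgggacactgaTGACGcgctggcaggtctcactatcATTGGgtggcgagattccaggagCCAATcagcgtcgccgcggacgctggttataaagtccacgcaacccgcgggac
Tapbp: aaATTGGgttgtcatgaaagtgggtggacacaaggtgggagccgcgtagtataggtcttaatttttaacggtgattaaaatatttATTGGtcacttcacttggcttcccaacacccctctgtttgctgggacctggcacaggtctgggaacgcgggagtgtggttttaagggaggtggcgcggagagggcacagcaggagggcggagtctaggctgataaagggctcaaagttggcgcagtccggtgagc
The base before the start counts as -1, and each position is that of the match's leftmost base. The B2m window held the interferon element at -139, an NF-kappaB match at -126, a CRE motif at -78 and a CCAAT box at -53. The H2-K1 window held overlapping NF-kappaB matches at -125 and -124, a CRE motif at -55 and CCAAT boxes at -30 and -6; H2-D1 had the same order, with NF-kappaB matches at -171 and -170, the CRE motif at -101 and CCAAT boxes at -76 and -53. In the Tapbp window the only matches were CCAAT boxes at -248 and -165. The interferon element was not limited to B2m among the 7 matched members: the windows of H2-T23 and Erap1, neither of which was called, held it at -124 and -4, on the minus strand of each gene. Over all 32851 RefSeq windows, which also hold 50 bases after the start, 3.44% had the interferon element, 8.30% the gamma-activated sequence, 4.51% the NF-kappaB consensus, 37.4% a CCAAT box and 20.8% a CRE motif. The H2-K1, H2-D1 and Tapbp windows had no exact match to the interferon element core. Only exact matches were searched, so a window without one may still hold a variant of the element. These matches describe letters in the reference sequence, and binding was not measured.

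Total counts were between 1885039 and 2184389 in pCAF and between 2223198 and 4990070 in NMF. In pCAF, replicate 1 had the largest total but the fewest genes with any count, 11090, against 13409 and 13555 in replicates 2 and 3. The NMF libraries had between 13222 (replicate 4) and 14353 (replicate 1) such genes. Values below are CPM, counts scaled to TMM-adjusted library sizes, computed here, and since the libraries count 3' ends, CPM is not divided by transcript length. Genes were called at an adjusted p under 0.05 in edgeR's quasi-likelihood test with Benjamini-Hochberg adjustment over 10535 tested genes. Libraries stood apart in both groups: pCAF replicate 1 differed from its group's other libraries by 40.0 and 42.2 chi-square units per degree of freedom, against 3.22 between pCAF replicates 2 and 3, and NMF replicate 4 differed from the other NMF libraries by 35.6 to 39.8, against 6.47 to 10.1 among those. Both sorts excluded CD45+ and EpCAM+ cells, and the PDPN+ step was made for pCAF only, so its part in any marker difference cannot be told apart from the groups. All 12 blood endothelial markers fell in pCAF, where they summed to between 53.8 and 70.95 CPM, against 1969 to 3214 CPM in NMF. Of 8 fibroblast markers, Col1a1, Col1a2, Col3a1, Lum and Pdpn rose in pCAF, and Pdpn encodes the protein used in the pCAF sort. The other 3 did not pass: Dcn had a log2 fold change (pCAF over NMF) of -0.85 (adjusted p = 0.0736, edgeR), Thy1 of 0.70 and Pdgfra of 0.05. Of 13 leukocyte markers, which summed to between 83.1 and 214 CPM in pCAF and between 42.6 and 316 CPM in NMF, 10 were tested and 5 fell; Ptprc, Adgre1 and Cd79a were at 0 in all pCAF libraries. Pericyte markers summed to 154 to 253 CPM in pCAF and 306 to 498 CPM in NMF, with 3 of 6 lower. Of 7 epithelial markers, summing to 105 to 258 CPM in pCAF and 186 to 533 CPM in NMF, 6 were tested and 3 fell. The 5 adipocyte markers summed to at most 2.77 CPM in pCAF and to 54.5 to 115.5 CPM in NMF, with Plin1, Lep and Cidec at 0 in pCAF, and the 3 Schwann cell markers to at most 1.13 CPM in pCAF and to 113 to 626 CPM in NMF, with Sox10 at 0 in pCAF. The 5 lymphatic endothelial markers summed to 23.3 to 46.2 CPM in pCAF and 30.6 to 62.1 CPM in NMF. Of these, 3 were tested: Mmrn1 was called higher in pCAF, Flt4 was called lower and Lyve1 was not called. The 3 erythroid markers summed to at most 4.43 CPM in pCAF and 5.91 CPM in NMF. The part of these cell types in the results below was not tested. In bulk RNA, fewer cells of a type and less RNA per cell cannot be told apart.

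The 9 members were called in both directions, and the share called in either direction was close to that of all tested genes. B2m, the light chain shared by class I molecules, rose in pCAF, Tap2 and Tapbp fell, and the other 6 members were not called in either direction. Thus 1 of 9 members was called higher, where 14.3% of all tested genes were, and 2 of 9 were called lower, where 14.2% of all tested genes were; called in either direction were 3 of 9, where 28.4% of all tested genes were. The groups did not overlap for the same 3 members, and for 40.4% of all tested genes. Without pCAF replicate 1, 3 members were called lower, where 19.8% of tested genes were, and 4 in either direction, where 38.1% were. Without that library and NMF replicate 4, 4 members were called lower, where 26.9% of tested genes were, and 5 in either direction, where 52.7% were. The median log2 fold change (pCAF over NMF) of the 9 members was -0.30, and that of all tested genes was -0.02.

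**Figure D1:**
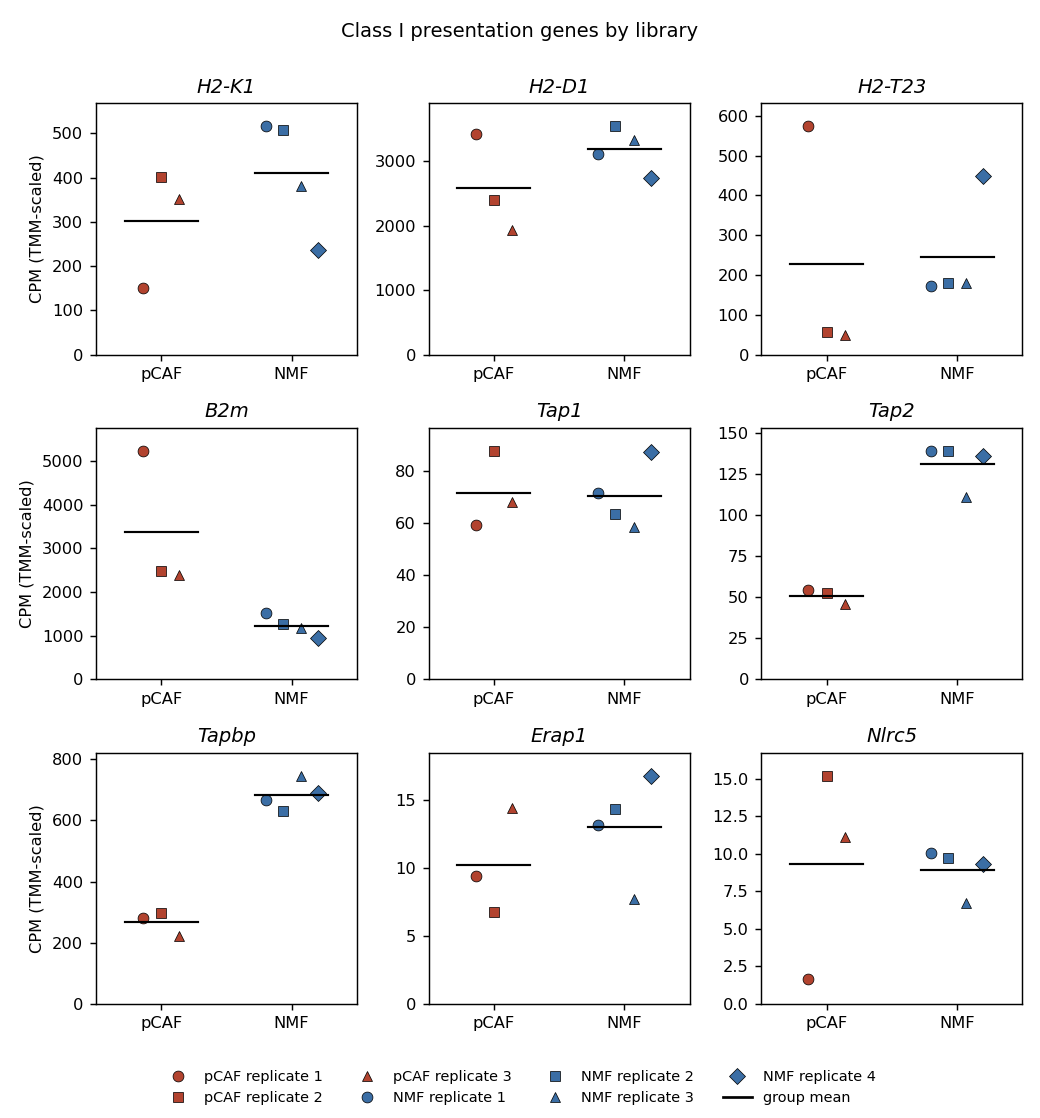
Level of each of the 9 genes in every library, in TMM-scaled CPM on linear axes that start at 0, with pCAF left of NMF and a bar at each group's mean. B2m is higher in all 3 pCAF libraries than in any NMF library, Tap2 and Tapbp are lower in all 3, and H2-T23 is spread over both groups.

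B2m encodes beta-2-microglobulin, without which most class I heavy chains do not reach the cell surface. It lies on chromosome 2 of mm10 at 122147686 to 122153083 on the plus strand, in the GENCODE M21 annotation. Its level was 5231, 2467 and 2392 CPM in pCAF replicates 1 to 3, against 1520.3, 1256, 1184 and 951 CPM in NMF replicates 1 to 4. The groups did not overlap, and pCAF replicate 1 was the highest of all 7 libraries, at 2.15 times the mean of the other pCAF libraries. The means were 3363 ± 1618 CPM in pCAF (SD, n = 3) and 1228 ± 234 CPM in NMF (SD, n = 4). The fitted fold change was 2.74 (95% interval 1.63 to 4.61; log2 fold change 1.45, SE 0.34; adjusted p = 0.00991, edgeR). Without pCAF replicate 1 the fold was 1.97, and without it and NMF replicate 4 it was 1.83; B2m stayed past the threshold in all 17 alternatives run for it.

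H2-K1 and H2-D1 are the classical heavy chains, which present peptides to CD8+ T cells. H2-K1 lies on chromosome 17 at 33996017 to 34000347 on the minus strand, and H2-D1 on the same chromosome at 35262730 to 35267499 on the plus strand. H2-D1 had 3418, 2395 and 1940.5 CPM in pCAF libraries, against 3117, 3546 (replicate 2), 3334 and 2742 CPM in NMF libraries. The groups overlapped, since pCAF replicate 1 lay above 3 of the 4 NMF libraries while the other pCAF libraries lay below all of them. The means were 2584 ± 757 CPM in pCAF (SD, n = 3) and 3185 ± 343 CPM in NMF (SD, n = 4), and the log2 fold change of -0.30 (SE 0.28, 95% interval -0.92 to 0.32) did not pass the threshold (adjusted p = 0.459, edgeR). Without pCAF replicate 1 and NMF replicate 4, H2-D1 was called lower, with 1.55-fold less in pCAF (adjusted p = 0.00539, edgeR). That fit called 26.9% of tested genes lower. This pair was left out because both libraries stood apart from their groups.

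H2-K1 had 151, 401 and 352 CPM in pCAF libraries, against 516, 508, 379.8 and 237 CPM in NMF libraries. The lowest value was that of pCAF replicate 1, at 0.402 times the mean of the other pCAF libraries, and NMF replicate 4 was lowest in its group, so that the groups overlapped. The means were 301 ± 132 CPM in pCAF (SD, n = 3) and 410.2 ± 131 CPM in NMF (SD, n = 4), with a log2 fold change of -0.44 (SE 0.39, 95% interval -1.31 to 0.42) that did not pass the threshold (adjusted p = 0.436, edgeR).

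H2-T23 encodes Qa-1, a non-classical heavy chain that presents signal-sequence peptides to NKG2A receptors on natural killer cells and CD8+ T cells. It lies on chromosome 17 at 36029773 to 36032855 on the minus strand. Its level was 574, 57.5 and 48.2 CPM in pCAF libraries, against 172, 179, 179.9 and 449.7 CPM in NMF libraries. One library in each group was far above the rest: pCAF replicate 1 held 10.9 times the mean of the other pCAF libraries, and NMF replicate 4 held 2.54 times the mean of the other NMF libraries. The log2 fold change over all libraries was -0.12 (SE 0.78, 95% interval -1.84 to 1.61; adjusted p = 0.930, edgeR). It turned positive without pCAF replicate 2 (0.34), without pCAF replicate 3 (0.36) and without NMF replicate 4 alone (0.41), and was not called there. Without pCAF replicate 1 the log2 fold change was -2.22, 4.67-fold lower in pCAF (adjusted p = 0.00417, edgeR). Without both pCAF replicate 1 and NMF replicate 4 it was -1.75, 3.37-fold lower (adjusted p = 5.577e-07, edgeR). These 2 libraries also stood apart over all genes, as given above, and they hold the 2 highest H2-T23 values. Fits without them called more genes in general. The share of all tested genes called was 38.1% without pCAF replicate 1 and 52.7% without both, against 28.4% with all libraries.

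Heavy chain reads can be shared between class I genes. In the last 300 bp of their transcripts, H2-K1 matched 9 other genes (80 bp or longer, 95% identical or closer), H2-D1 matched 12 and H2-T23 matched 70, Tapbp matched 1 (Zbtb22, whose end it overlaps), while B2m, Tap1, Tap2, Nlrc5 and Erap1 matched none. The authors' handling of reads that map to several genes was not given in the sources used here, and BALB/c mice carry class I alleles other than those of the C57BL/6J mouse on which mm10 is built. The levels of the 3 heavy chains are therefore uncertain as levels of single genes. H2-L, a classical heavy chain of BALB/c mice, had 22 counts over all 7 libraries. Its reads may have been counted under other class I genes, so its level is uncertain too.

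Because each class I molecule joins 1 heavy chain to 1 beta-2-microglobulin, the ratio of the counts within a library was taken, which does not depend on library scaling. H2-D1 had 0.653, 0.971 and 0.811 counts per B2m count in pCAF libraries, against 2.05, 2.82, 2.82 and 2.88 in NMF libraries. H2-K1 had 0.0289, 0.163 and 0.147 counts per B2m count in pCAF libraries, against 0.339, 0.404, 0.321 and 0.249 in NMF libraries. Neither ratio overlapped between the groups. The mean ratio of H2-D1 was 0.812 ± 0.159 in pCAF (SD, n = 3) and 2.64 ± 0.396 in NMF (SD, n = 4), and that of H2-K1 was 0.113 ± 0.0731 in pCAF and 0.329 ± 0.0636 in NMF. On the mean of the log2 ratios, pCAF lay 3.27-fold lower for H2-D1 (log2 difference -1.71) and 3.66-fold lower for H2-K1 (log2 difference -1.87). Each two-sided exact permutation test gave p = 0.0286, the smallest that 35 splits of these libraries allow, and 0.0286 after adjustment over the 2 ratios. The ratios share their B2m counts, so they are not independent of each other or of the rise of B2m. The log2 difference for H2-K1 was -1.07 without pCAF replicate 1. The ratio of counts compares 3' reads and is not a ratio of proteins.

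**Figure D2:**
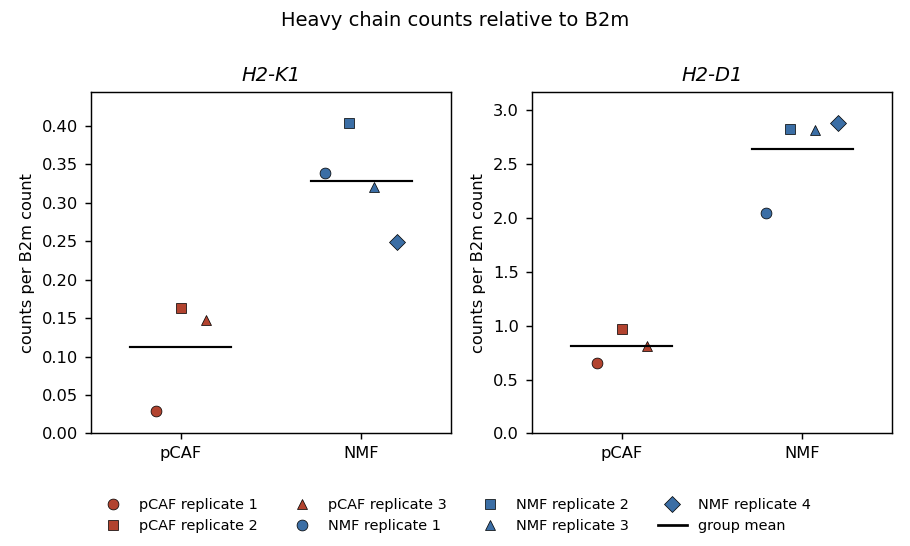
Counts of H2-K1 and of H2-D1 per B2m count in each library, pCAF left of NMF, on linear axes that start at 0, with a bar at each group's mean. All 3 pCAF libraries lie below all 4 NMF libraries in both panels, with H2-D1 at up to 0.971 in pCAF and at least 2.05 in NMF.

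The tightest replicates were those of Tap2 and Tapbp, which had the smallest coefficients of variation of the 9 genes in each group (9.21% and 14.5% in pCAF, 10.3% and 7.06% in NMF). Tapbp encodes tapasin, which bridges class I molecules and the TAP transporter and helps select peptides; it lies on chromosome 17 at 33915899 to 33929292 on the plus strand. Its level was 280.1, 296 and 223 CPM in pCAF libraries, against 667, 632, 747 and 689 CPM in NMF libraries. The highest pCAF library, at 296 CPM, was below the lowest NMF library, at 632 CPM. The means were 266 ± 38.6 CPM in pCAF (SD, n = 3) and 684 ± 48.3 CPM in NMF (SD, n = 4), 2.57-fold lower in pCAF (log2 fold change -1.36, SE 0.25; adjusted p = 0.00256, edgeR). The end of Tapbp overlaps that of Zbtb22 on the same strand, and that of Gm19412 on the opposite strand; Zbtb22 had at most 21 counts in pCAF and 44 in NMF.

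Tap2 encodes a chain of the peptide transporter, and it lies on chromosome 17 at 34203527 to 34216321 on the plus strand. It had 54.3, 52.4 and 45.5 CPM in pCAF libraries, against 139 (replicate 1), 139 (replicate 2), 111 and 136 CPM in NMF libraries. Its end overlaps Gm15821 and Gm20496 on the opposite strand. The groups did not overlap, and neither pCAF replicate 1 nor NMF replicate 4 stood apart from its group for this gene. The means were 50.7 ± 4.67 CPM in pCAF (SD, n = 3) and 131 ± 13.5 CPM in NMF (SD, n = 4), 2.58-fold lower in pCAF (log2 fold change -1.37, SE 0.24; adjusted p = 0.00221, edgeR). Tap2 and Tapbp stayed past the threshold in all 17 alternatives run for each of them, with log2 fold changes between -1.61 and -1.29 for Tap2 and between -1.60 and -1.24 for Tapbp. Their log2 CPM had a Pearson r of 0.968 over the 7 libraries, given as a description, since the group difference enters it.

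Tap1 encodes the partner chain of TAP2, and both chains are needed for transport. It lies on chromosome 17 at 34187553 to 34197225 on the plus strand. Its level was 59.3, 87.9 and 68.2 CPM in pCAF libraries, against 71.8, 63.8, 58.4 and 87.6 CPM in NMF libraries. The groups covered nearly the same range, with means of 71.8 ± 14.6 CPM in pCAF (SD, n = 3) and 70.4 ± 12.7 CPM in NMF (SD, n = 4). The log2 fold change was 0.03 (SE 0.26, adjusted p = 0.955, edgeR), and its 95% interval of -0.56 to 0.61 lay above the estimate for Tap2. Its sign changed in 7 of the 17 alternatives, among them library totals and upper quartile scaling, and Tap1 was not called in any of them. The difference between the fold changes of Tap1 and Tap2 was not itself tested.

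Tap1 and Tap2 lie beside 2 proteasome genes in a stretch of 34.3 kb, in the order Psmb9, Tap1, Psmb8 and Tap2. Psmb9 and Psmb8 encode catalytic subunits of the immunoproteasome, the form of the proteasome induced by interferon gamma. Psmb9, which is read from the minus strand beside Tap1, averaged 44.6 CPM in pCAF and 94.5 CPM in NMF (log2 fold change -1.08, SE 0.31; adjusted p = 0.0263, edgeR). Psmb8 averaged 215 CPM in pCAF and 261 CPM in NMF and was not called (log2 fold change -0.28, SE 0.25; adjusted p = 0.441). Psmb9 kept its call in 2 of the 7 fits that left out 1 library, and without pCAF replicate 1 and NMF replicate 4 Psmb8 was called lower too (log2 fold change -0.47, adjusted p = 0.0485, edgeR). Differences between these genes were not tested. The annotated ends of Psmb9 and Tap1 overlap at 34187553 to 34187764, at the starts of both genes and away from their 3' ends.

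**Figure D3:**
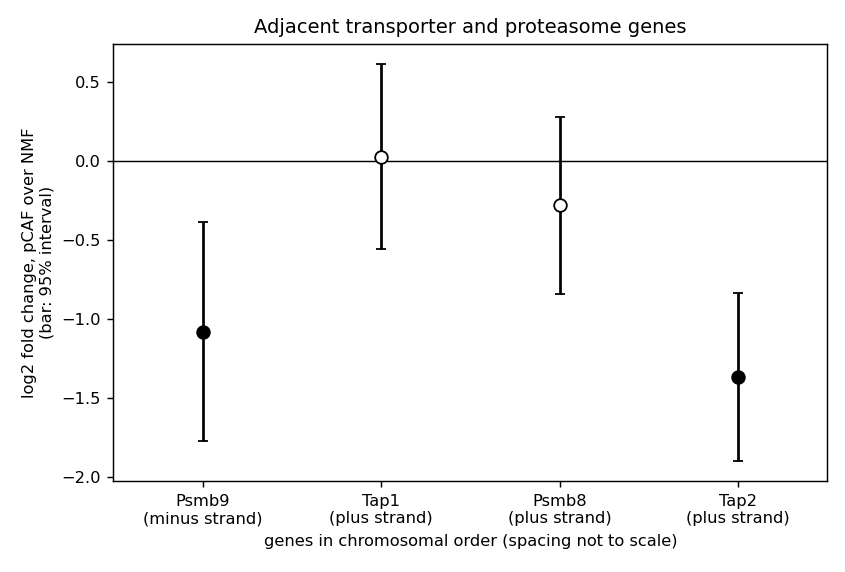
Fitted log2 fold change (pCAF over NMF) with its 95% interval for the 4 neighbouring genes in chromosomal order; filled points passed the threshold and open points did not. Psmb9 (-1.08) and Tap2 (-1.37) lie below 0 with their intervals, whereas those of Tap1 (0.03) and Psmb8 (-0.28) span 0.

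Erap1 and Nlrc5 were measured at few counts. ERAP1 trims peptides inside the endoplasmic reticulum to the length that class I molecules hold, and its gene lies on chromosome 13 at 74639568 to 74693201 on the plus strand. Erap1 had 17, 12 and 26 counts in pCAF libraries, against 34, 34, 22 and 90 counts in NMF libraries, which gave 9.43, 6.76 and 14.4 CPM in pCAF and 13.1, 14.4, 7.74 and 16.8 CPM in NMF. The groups overlapped (10.2 ± 3.88 CPM in pCAF, n = 3; 13.0 ± 3.83 CPM in NMF, n = 4, SD), and the log2 fold change of -0.35 (SE 0.45, 95% interval -1.35 to 0.65) did not pass the threshold (adjusted p = 0.602, edgeR). Its end overlaps Cast on the opposite strand, and whether reads were counted by strand was not given in the sources used here.

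NLRC5 is the transactivator that drives the promoters of class I genes, B2m and Tap1. Its gene lies on chromosome 8 at 94434356 to 94527272 on the plus strand, and its end overlaps 9330175E14Rik on the opposite strand. Nlrc5 had 3, 27 and 20 counts in pCAF libraries, against 26, 23, 19 and 50 counts in NMF libraries. In CPM these were 1.66 (exact 95% counting interval 0.343 to 4.86), 15.2 and 11.1 in pCAF, against 10.04, 9.71, 6.69 and 9.34 in NMF. The low value of pCAF replicate 1 set the spread of its group, which averaged 9.32 ± 6.94 CPM (SD, n = 3), against 8.95 ± 1.53 CPM in NMF (SD, n = 4). The log2 fold change was 0.06 (SE 0.62, 95% interval -1.31 to 1.43, adjusted p = 0.956, edgeR). Its sign changed in 7 of 16 alternatives, library totals among them. The log2 fold change was 0.55 (SE 0.37) without pCAF replicate 1 and still not called (adjusted p = 0.262, edgeR). Counting intervals cover counting error only.

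**Figure D4:**
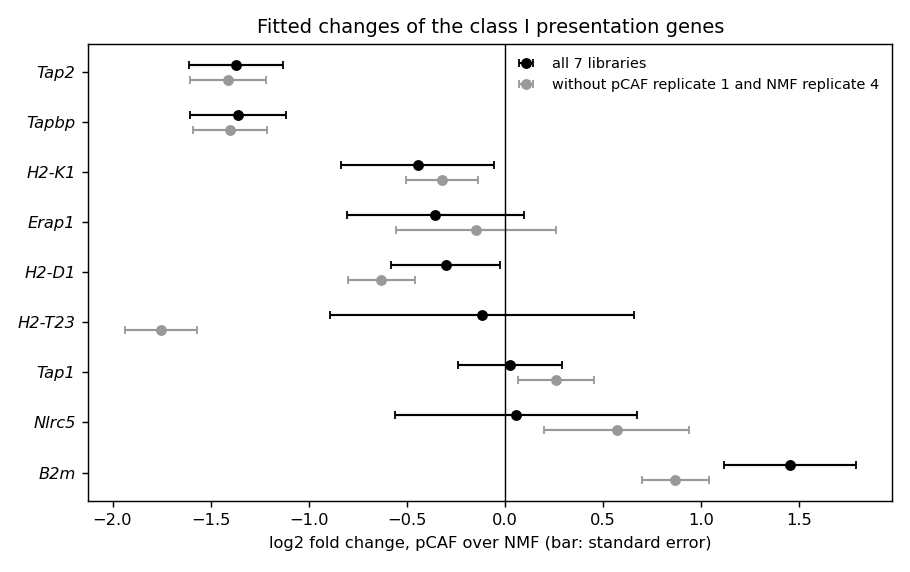
Fitted log2 fold change (pCAF over NMF) of each of the 9 genes, with bars of 1 standard error, from all 7 libraries (black) and without pCAF replicate 1 and NMF replicate 4 (grey). With all libraries B2m lies at 1.45 and Tap2 and Tapbp at -1.37 and -1.36; H2-T23 has the widest bar (SE 0.78) and moves from -0.12 with all libraries to -1.75 without the 2 libraries.

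Other genes of the pathway were taken from 7 lists by role, and their counts stand beside the 14.3% of all tested genes called higher and the 14.2% called lower. Of 20 other class I and class I-like heavy chains, 4 were at 0 in every library and 5 could be tested; none was called higher and 2 were called lower, with a median log2 fold change of -1.08. Fcgrt, which encodes the heavy chain of the neonatal Fc receptor that pairs with beta-2-microglobulin to recycle IgG and albumin, had 171, 124 and 117 CPM in pCAF libraries, against 738, 914, 898 and 810.0 CPM in NMF libraries. It was 6.11-fold lower in pCAF (137 ± 29.6 CPM, n = 3) than in NMF (839.9 ± 82.0 CPM, n = 4, SD; adjusted p = 1.308e-04, edgeR), with no overlap. H2-M3, which presents formylated peptides, averaged 28.8 ± 4.91 CPM in pCAF and 61.2 ± 18.0 CPM in NMF (adjusted p = 0.0355), and it kept its call in 2 of the 7 fits that left out 1 library, so that the count of lower genes was 1 without pCAF replicate 2 or 3 or without NMF replicate 1, 2 or 3. Hfe, a regulator of iron uptake, averaged 18.3 ± 18.3 CPM in pCAF and 49.7 ± 9.05 CPM in NMF, and Cd1d1, which presents lipids, averaged 16.0 ± 3.52 CPM in pCAF and 11.5 ± 1.85 CPM in NMF; neither was called. Hfe had a log2 fold change of -1.44 (adjusted p = 0.0764, edgeR), which became -2.67 without pCAF replicate 1, where it was called lower (adjusted p = 0.000253); it was also called lower with library totals, DESeq2 and limma-voom. The count of lower genes was 3 of 6 tested without pCAF replicate 1, where 19.8% of all tested genes were called lower. Without that library and NMF replicate 4 the count was 4 of 6, with H2-T24 added, where 26.9% were.

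Immunoproteasome and PA28 activator genes numbered 5, with none called higher, 2 called lower (Psmb9 and Psme1) and a median log2 fold change of -0.48. Psme1, a subunit of the PA28 cap, averaged 240.3 ± 60.6 CPM in pCAF and 439 ± 29.2 CPM in NMF (1.83-fold lower, adjusted p = 0.0291, edgeR). Both calls were near the threshold: the count was 0 when pCAF replicate 2 or 3, or NMF replicate 1, 2 or 3, was left out. In the fit without pCAF replicate 1 and NMF replicate 4, 4 of the 5 genes were called lower, where 26.9% of tested genes were, and Psme2, the other PA28 subunit, was called higher, where 25.9% were. Psmb10, the remaining catalytic subunit, averaged 214 ± 127 CPM in pCAF and 299 ± 45.3 CPM in NMF and was not called (log2 fold change -0.48, adjusted p = 0.357, edgeR). Its log2 fold change without pCAF replicate 1 was -1.09, and it was called lower (adjusted p = 0.00467).

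Of the 14 constitutive 20S proteasome genes, 7 were called higher in pCAF and none lower, where 14.3% and 14.2% of all tested genes were, with a median log2 fold change of 1.11. The called genes were Psma1 to Psma6, which encode structural alpha-ring subunits, and Psmb7, which encodes a catalytic beta subunit. Psmb7 rested on pCAF replicate 1, with 291, 68.2 and 77.0 CPM in pCAF libraries, against 57.2, 43.1, 55.6 and 35.1 CPM in NMF libraries, and it lost its call without that library and without any 1 of the NMF libraries, as Psma5 did without NMF replicate 1. The number called higher ran from 5 to 9 over the fits that left out 1 library. It was 9 without pCAF replicate 1, where 18.3% of all tested genes were called higher. Psma4 averaged 139 ± 15 CPM in pCAF and 20.3 ± 2.46 CPM in NMF, 6.81-fold higher (adjusted p = 5.647e-05, edgeR), Psma3 173 ± 41.4 CPM in pCAF and 40.5 ± 12.5 CPM in NMF (4.25-fold), and Psma1 126 ± 22.2 CPM in pCAF and 32.7 ± 5.32 CPM in NMF (3.84-fold). These 3 genes, named for having the smallest adjusted p of the list, kept their call in all 7 fits that left out 1 library. The groups did not overlap for any of these 3 genes, and 19.0% of all tested genes were higher in pCAF without overlap. Psmb4 (844 ± 125 CPM in pCAF, 554 ± 82.2 CPM in NMF) and Psmb1 (740.2 ± 396 CPM in pCAF, 380.3 ± 90.0 CPM in NMF) were not called; Psmb4 was called higher without pCAF replicate 1, and the log2 fold change of Psmb1, 0.96 with all libraries, was 0.43 without pCAF replicate 1 (adjusted p = 0.222).

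Genes for chaperones and for the translocation channel of the endoplasmic reticulum numbered 10, of which 6 were called higher in pCAF and none lower, with a median log2 fold change of 1.26. Sec61b and Sec61a1, subunits of the channel through which new heavy chains enter, averaged 639 ± 128 CPM in pCAF and 163 ± 30.8 CPM in NMF (3.91-fold) and 636 ± 114 CPM in pCAF and 218 ± 44.4 CPM in NMF (2.91-fold). Canx, which encodes calnexin, a lectin that folds free heavy chains, averaged 147 ± 17.4 CPM in pCAF and 42.5 ± 16.7 CPM in NMF (3.44-fold; adjusted p = 0.00222, edgeR). Pdia3, which encodes ERp57, the disulfide isomerase bound to tapasin in the loading complex, was also called higher, with 363.5 ± 95.6 CPM in pCAF and 167 ± 27.3 CPM in NMF, opposite in direction to Tapbp. Canx, Sec61a1 and Sec61b kept their call in all 7 fits that left out 1 library. Pdia3 lost its call without pCAF replicate 2, Hspa5 without NMF replicate 1, 2 or 3, and Ganab without NMF replicate 2. The count ran from 4 to 7 of 10. It was 7 without pCAF replicate 1, where 18.3% of all tested genes were called higher. Calr, which encodes calreticulin, averaged 1817 ± 422 CPM in pCAF and 1253 ± 225 CPM in NMF, and Bcap31 150 ± 64.6 CPM in pCAF and 141 ± 31.5 CPM in NMF; neither was called, although Calr was called higher without pCAF replicate 1. These chaperones serve secreted proteins in general, and 5 of 8 fibroblast markers, most of them secreted matrix proteins, were also called higher in pCAF; their part in these levels was not tested.

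Of 7 peptide-trimming genes outside the members, Lap3, a cytosolic leucine aminopeptidase, was called higher (125 ± 10.6 CPM in pCAF, 53.0 ± 6.07 CPM in NMF, 2.37-fold, adjusted p = 0.00295, edgeR) and Nrd1, the protease nardilysin, lower (59.6 ± 6.73 CPM in pCAF, 100.8 ± 16.6 CPM in NMF, adjusted p = 0.0447), a call that Nrd1 kept in 1 of 7 fits that left out 1 library, the one without pCAF replicate 1. Blmh averaged 103 ± 53.6 CPM in pCAF and 82.4 ± 15.9 CPM in NMF, and Npepps 85.9 ± 40.4 CPM in pCAF and 74.4 ± 15.5 CPM in NMF, and neither was called. The median log2 fold change of the 7 genes was 0.28.

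Among 14 transcription factor genes known to act on class I promoters, 12 were tested, none was called higher and 1 was called lower, with a median log2 fold change of -0.34. The called gene was Rfxap, a subunit of the RFX complex that binds the X box, with 0, 10 and 8 counts in pCAF libraries, against 50, 44, 50 and 92 counts in NMF libraries (3.36 ± 2.97 CPM in pCAF, 18.2 ± 0.962 CPM in NMF; adjusted p = 0.0293, edgeR). It kept its call in 3 of the 7 fits that left out 1 library, and the count of lower genes was 0 without NMF replicate 1, 2 or 3 and 2 without pCAF replicate 1 or NMF replicate 4. Irf1, the interferon-induced activator of class I genes, had 137, 148 and 142 CPM in pCAF libraries, against 369, 275, 319.6 and 84.8 CPM in NMF libraries; NMF replicate 4 lay below all pCAF libraries and the gene was not called (log2 fold change -0.88, adjusted p = 0.154, edgeR). Without NMF replicate 4 Irf1 was called lower (log2 fold change -1.15, adjusted p = 0.00611), as it was with the replicate block (-1.16, adjusted p = 0.0270). Rela, the p65 subunit of NF-kappaB, averaged 116 ± 12.5 CPM in pCAF and 143 ± 5.18 CPM in NMF and was not called.

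The 10 genes of the interferon receptors and their signaling had a median log2 fold change of -0.01, with none called higher and 2 of 10 called lower, where 14.2% of all tested genes were. Irf9, the DNA-binding part of the complex that type I interferon activates, had 82.1, 60.3 and 56.5 CPM in pCAF libraries, against 207, 167, 146 and 141 CPM in NMF libraries. It was 2.49-fold lower in pCAF without overlap (adjusted p = 0.00484, edgeR) and kept its call in all 7 fits that left out 1 library. Ifngr1, the ligand-binding chain of the interferon gamma receptor, averaged 53.1 ± 23.9 CPM in pCAF and 138 ± 39.8 CPM in NMF (2.59-fold lower, adjusted p = 0.0201), with an overlap between pCAF replicate 2 and NMF replicate 4, and kept its call in 3 of these 7 fits, losing it without pCAF replicate 3 or NMF replicate 1, 2 or 3. Jak1 averaged 185 ± 22.5 CPM in pCAF and 159 ± 22.7 CPM in NMF, and Ifnar2 164 ± 31.4 CPM in pCAF and 162 ± 16.0 CPM in NMF, and neither was called. Jak2 averaged 92.9 ± 22.9 CPM in pCAF and 48.9 ± 15.8 CPM in NMF and was not called (log2 fold change 0.93, adjusted p = 0.0550, edgeR). It was called higher with DESeq2, with limma-voom, without pCAF replicate 1 and without NMF replicate 1. Without pCAF replicate 1 and NMF replicate 4, Jak2 was called higher, where 25.9% of tested genes were, and Socs1 lower, where 26.9% were.

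**Figure D5:**
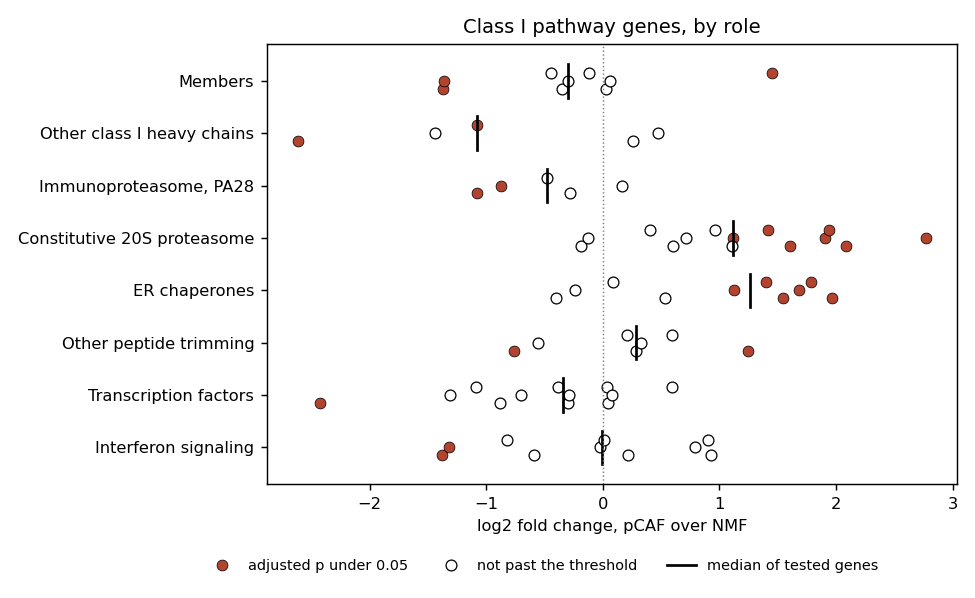
Fitted log2 fold change (pCAF over NMF) of each tested gene of the 9 members and of 7 pathway lists, with filled points for genes past the threshold and a line at each list's median. The constitutive proteasome and chaperone lists have their called genes to the right of 0 (7 of 14 and 6 of 10), and the other heavy chain and immunoproteasome lists have theirs to the left (2 of 5 each).

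The genes whose log2 CPM followed B2m and H2-K1 most closely over the 7 libraries were found among 3503 genes that averaged 50 CPM or more. For B2m these were Cox7c (Pearson r = 0.993), Ctps (0.987), Taf1d (0.985), Mrpl30 (0.984) and Mrpl33 (0.983). For H2-K1 they were Dnal4 (r = 0.988), Nsmce4a (0.976), Psmg4 (0.970), Lypla2 (0.967) and Hes1 (0.966). No member was in either list. All points share library depth and the group difference, and with 7 libraries, 1 of which was extreme for both genes, these values are a description.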

How the data were processed

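The authors deposited raw counts per gene symbol for the 7 libraries. Per the labels, libraries were made from 3' ends of polyadenylated RNA; the submitters' processing notes name mm10, HTSeq, STAR 2.4.2a and bcl2fastq, with roles, annotation, strand setting and handling of multi-mapping reads not given in the sources used here. Groups were taken from each sample's title and source name.

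Counts were analysed with edgeR 4.0.16 in R 4.3.3: filterByExpr left 10535 of 24421 symbols (7867 were at 0 everywhere), libraries were scaled by TMM, and groups were compared with the robust quasi-likelihood F test, two-sided, Benjamini-Hochberg adjusted over all tested genes. Total counts per library ran from 1885039 to 4990070. For correlations, log2 CPM had 2 added as prior count. Ratios of counts were compared by exact permutation of the log2 ratio. Alternatives were other scalings, filters and tests (DESeq2 1.42.0, limma 3.58.1 voom), thinned counts, a replicate block and leaving out libraries. The fit was tested on simulated data. Transcript ends were compared with blastn 2.17.0; positions are from GENCODE M21.

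The members, lists and alternatives were chosen with earlier results of these data known. All members are named; from each list, up to 3 called genes per direction by adjusted p and the 2 uncalled genes of highest mean are named. Psmb7, Psma2, Psma5, Psma6, Psme2, H2-T24, Hspa5, Ganab, Pdia3, Jak2 and Socs1 were added after their values were seen.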

Additional observations from a re-analysis of the deposited data

Results flagged for a closer look

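Of 40 genes and ratios examined in the 4 NMF libraries, 8 had 1 library far from the other NMF libraries by Dixon's criterion; chance gives about 1 in 20. The heavy chain H2-T23 had 449.7 CPM in NMF replicate 4 and 172 to 179.9 CPM in the other NMF libraries. Tap2, which was called lower in pCAF, had 110.9 CPM in NMF replicate 3 and 136 to 139 CPM in the others. In NMF replicate 4, H2-M3 had 34.55 CPM against 66.4 to 72.9 CPM in the others, Canx had 67.42 CPM against 32.1 to 36.7 CPM, and Ifngr1 had 78.81 CPM against 151 to 165.5 CPM. Cd1d1 had 14.29 CPM in NMF replicate 1 and 10.56 to 10.64 CPM in the others, and Psmb8 had 325.5 CPM in NMF replicate 2 and 234 to 243 CPM in the others. The ratio of H2-D1 to B2m counts was 2.051 in NMF replicate 1 and 2.82 to 2.88 in the others. NMF replicate 4 was the library that stood apart in 4 of the 8 cases, and it was also the deepest, with 4990070 counts.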

How the results depend on the processing

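B2m, Tap2 and Tapbp kept direction and call in all 17 alternatives; B2m ran from 0.87 to 1.65 (log2, adjusted p up to 0.0343). With the replicate block, 1 member was higher and 2 lower, and B2m was 1.26 (adjusted p = 0.0335); the numbers share no stated source, and deviations of same-numbered libraries had r of -0.09, 0.08 and -0.01. Over all genes the block moved the calls to 978 higher and 1023 lower, from 1503 and 1491. Library totals gave 1121 higher and 1902 lower and a median log2 fold change of -0.26 over all genes. Without pCAF replicate 1 and NMF replicate 4, 4 members were lower (H2-D1 and H2-T23 added), and the log2 ratios to B2m were -1.191 for H2-K1 and -1.515 for H2-D1 (exact p = 0.1, the smallest possible). Leaving out 1 library gave -2.310 to -1.066 for H2-K1 and -1.847 to -1.561 for H2-D1, where the smallest exact p exceeds 0.05 by construction. Signs of uncalled genes that reversed, cause not tested: library totals gave -0.203 for Tap1, -0.139 for Nlrc5, -0.121 for Bcap31, -0.210 for Ifnar2 and -0.0167 for Jak1; upper quartile factors -0.0115 for Tap1 and -0.0242 for Ifnar2; limma-voom -0.372 for Nlrc5 and -0.00154 for Bcap31; no low-count filter -0.00866 for Tap1 and -0.0233 for Ifnar2; thinned libraries -0.0272 for Tap1 and -0.0672 for Nlrc5; the block -0.173 for Nlrc5, -0.150 for Bcap31, -0.0621 for Ifnar2 and -0.0110 for Npepps. DESeq2 size factors gave -0.000387 and a mean of at least 10 CPM -0.00355 for Ifnar2, and the pair left out gave -0.0624 for Blmh. Leave-one-out ranges were -2.222 to 0.4051 for H2-T23, -0.141 to 0.1685 for Tap1, -0.4773 to 0.549 for Nlrc5, -0.1897 to 0.5682 for Blmh, -0.1503 to 0.398 for Bcap31, -0.08616 to 0.1591 for Ifnar2 and -0.109 to 0.5385 for Npepps; without both of the libraries above, Tap1 reached 0.262 and Nlrc5 0.572. Nlrc5 was not tested at a mean of at least 10 CPM, and DESeq2 gave H2-T23 no adjusted p.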

Other observations

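Each catalytic subunit of the immunoproteasome takes the place of a constitutive one, so counts of the pairs can be set side by side within a library. Psmb9 had 0.0572 to 0.138 counts per Psmb6 count in the 3 pCAF libraries and 0.308 to 0.436 in the 4 NMF libraries. Psmb8 had 1.93 to 4.08 counts per Psmb5 count in pCAF and 4.6 to 6.63 in NMF. Psmb10 had 1.24 to 2.14 counts per Psmb7 count in pCAF and 4.89 to 8.27 in NMF. None of the 3 ratios overlapped between the groups, and no test was made, since the pairs were examined after the levels of the single genes were known. In pCAF replicate 1, Psmb6 and Psmb7 were the highest of all libraries, at 1038 and 291 CPM, against 290.1 and 68.2 CPM in pCAF replicate 2 and 304.9 and 77.0 CPM in pCAF replicate 3.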
